A study of Mus musculus with 20 samples.

Results

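Postnatal transformed and embryonic transduced mouse glial progenitors were compared on 10 of the 20 arrays of the series. Members were chosen by their description in the labels alone: 5 arrays of transformed progenitors of postnatal origin and 5 of transduced progenitors of embryonic origin. The other 10 arrays, 5 of control postnatal and 5 of control embryonic progenitors, served as the age comparison without modification. All 20 held total RNA of cell lines from mouse brain, and the labels state no strain, sex, age in days, passage, vector or introduced gene for any group. The words transduced and transformed differ between the ages, so origin, culture and the kind of modification cannot be told apart in this comparison. The labels do not state that arrays of a group came from separate cultures, and p-values therefore measure the spread between these arrays, which may be technical.

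Glial progenitors of the oligodendrocyte lineage divide under platelet-derived growth factor, which they sense through Pdgfra, and carry the transcription factors Olig2 and Sox10. Earlier neural precursors depend more on Notch signalling and its target Hes5, and carry Prom1, a membrane glycoprotein used as a stem cell marker. Hox transcription factors form a code that records the position along the body axis at which neural cells arose. Transformation of such progenitors and precursors is studied as a model of glioma, in which growth control, oxygen sensing and cell identity are altered together.

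Each value is a linear array signal as deposited, with the same trimmed mean on every array (2500). Differences are in log2(signal + 16), postnatal transformed minus embryonic transduced, with 5 arrays in each group, ± SE from limma. The limma SE and p-values pool the spread of all 4 groups, control arrays included. They are not the spread of the 10 modified arrays alone. Background was set on each array at the 95th percentile of 27 bacterial control probe sets, between 107 and 221 on the modified arrays, and 61.3 to 73.2% of probe sets were above it. A gene was called at an adjusted p below 0.05 (limma, Benjamini-Hochberg over 18193 genes) and a difference of at least 2-fold. Where a gene was below background on all arrays of the dimmer group, the difference is given as a bound (at least N-fold); where it was above background on 1 to 3 of them, mean signals are given instead. Array pairs within the embryonic transduced group correlated at 0.956 to 0.969 and within the postnatal transformed group at 0.965 to 0.970, as descriptions over all genes.

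Several features of the libraries moved with the groups, and their part in the results was not tested except where a value is given. The log2 ratio of 3 prime to 5 prime control probe sets was lower in postnatal transformed arrays. It fell by 0.25 for Gapdh (-0.55 ± 0.05 against -0.30 ± 0.04, SD) and fell by 0.14 for Actb (0.28 ± 0.04 against 0.42 ± 0.03), each with adjusted p = 0.00794 in a two-sided exact permutation test. Transcripts of the Y chromosome separated the groups: Eif2s3y, a translation initiation factor subunit, was at 2843 to 3536 on postnatal transformed arrays and below background on every embryonic transduced array (78 to 204), where it was at least 17.7-fold lower. Embryonic control arrays had 3601 to 4592, so the arrays labelled as transduced embryonic progenitors differed in this transcript from their own control. Kdm5d and Uty, also on the Y chromosome, were called higher in postnatal transformed arrays. Xist, the RNA that coats the inactive X chromosome, was above background in all groups, with means of 2260 in embryonic transduced and 8151 in postnatal transformed arrays, beside 12495 and 35987 in the controls of those ages. Postnatal control arrays 4 and 5 had low cell cycle transcripts, and counts over lists that use the control arrays are also given without these 2 arrays where the count changes. Genes of chromosome 14 were lower in postnatal transformed arrays, as described at the end.

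As a check of the labelled cell type, Olig2 was at 37229 ± 2518 (SD) in embryonic transduced and 47395 ± 2083 in postnatal transformed arrays, a difference of 0.35 ± 0.06 that was below 2-fold. Sox2, a transcription factor of neural precursors, was at 45953 ± 4221 and 36853 ± 1418 (difference -0.31 ± 0.07). Both factors were above background on all 20 arrays. In bulk RNA, fewer cells of a type and less of its RNA per cell cannot be told apart. Of 15 microglial genes 1 was called higher and 2 lower. The lower calls included Itgam, so that call compared signals at the floor. Aif1, Itgam and C1qa were below background on all 10 modified arrays, whereas Csf1r, the receptor of a macrophage growth factor (means 862 and 569), Cd68, a lysosomal protein (905 and 614), and Laptm5 (517 and 273) were above it on all 10. The mean log2 level of the list ran from 7.05 to 7.98 in embryonic transduced and from 6.74 to 7.33 in postnatal transformed arrays. P2ry12, a purine receptor of microglia, was the member called higher (18.5 to 283 against 1262 to 1502, above background on 2 embryonic transduced arrays). Of 14 endothelial and pericyte genes 0 were called higher and 3 lower, with list means of 6.66 to 7.44 and 6.47 to 6.90. Pecam1, Tie1 and Anpep were below background on all 10 arrays, and Anpep was nevertheless 1 of the 3 called lower. Kdr, a receptor of vascular growth factor, was above it on all 10 (504 and 347), and Cldn5, a tight junction protein (327 and 62.6), and Emcn, a mucin of venous endothelium (255 and 115), were above it on 4 embryonic transduced arrays. The part of such cells in the results was not tested. Of 9 ependymal genes 0 were called higher and 2 lower, with list means of 6.69 to 7.6 and 6.14 to 6.72.

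In all, 4634 of 18193 genes were called between the modified groups (25.5%), 2135 higher (11.7%) and 2499 lower (13.7%) in postnatal transformed cells. The 5 arrays of a group did not overlap with the 5 of the other for 8480 genes (46.6%), and for 4149 of the called genes. The same comparison of control cells called 1925 genes (10.6%), 884 higher (4.86%) and 1041 lower (5.72%) in postnatal cells, and 1367 without postnatal control arrays 4 and 5. The median of all genes was -0.14 on the deposited scale, 0.00 once arrays were quantile normalized and -0.07 with each array centred at its 75th percentile; the majority of lower calls turned to 52.4% higher after quantile normalization, so the balance of rises and falls depends on the scaling. Those shares of called genes are the background against which the members of each list are read.

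**Figure D1:**
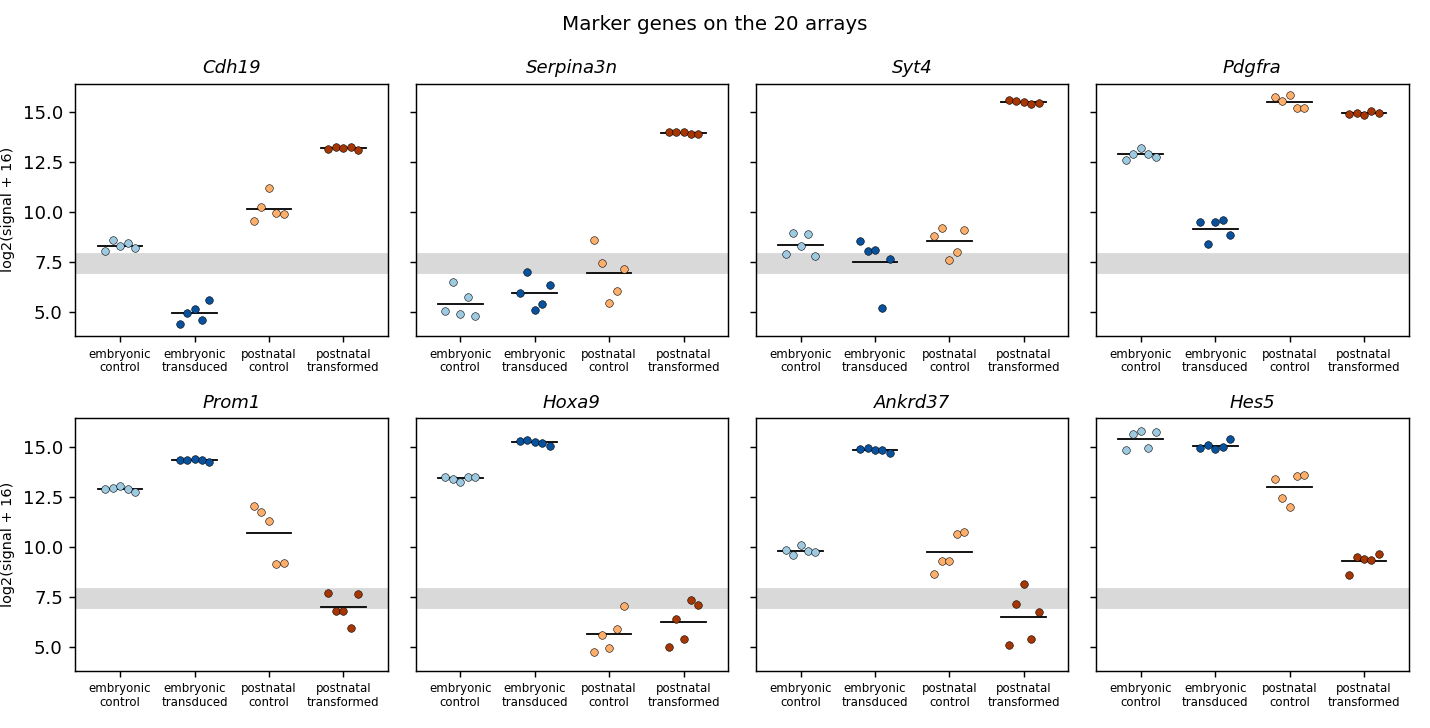
Signal of 8 marker genes on the 20 arrays, as log2(signal + 16); points are arrays, lines are group means and the grey band spans the background of all arrays. Cdh19, Serpina3n, Syt4 and Pdgfra are high in postnatal transformed arrays, and Prom1, Hoxa9, Ankrd37 and Hes5 are high in embryonic transduced arrays, with no overlap of these groups.

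The widest rises included a cadherin, a secreted protease inhibitor and a vesicle protein. Cdh19, a cadherin of Schwann cell precursors and of oligodendrocyte progenitors, was at 4.99, 15.5, 19.8, 8.7 and 32.8 on the embryonic transduced arrays and at 9241, 9681, 9593, 9770 and 8948 on the postnatal transformed arrays. It was below background on every embryonic transduced array, and the difference was at least 51.3-fold (adjusted p = 1.01e-16). Serpina3n, a secreted serine protease inhibitor of reactive glia, was at 45.7, 115, 18.8, 26.4 and 65.9 against 16570, 16315, 16271, 15503 and 15440, at least 87-fold higher (adjusted p = 4.91e-12). Its control arrays were near background as well, with means of 31.5 and 149, so postnatal transformed cells stood apart from the other 3 groups. Syt4, a synaptotagmin of secretory vesicles, was at 362, 254, 256, 21.6 and 188 against 49770, 48706, 46267, 43505 and 44334; 3 of the embryonic transduced arrays were above background. Another probe set of the gene was below background on every embryonic transduced array, with means of 40.8 and 37390. The control means of Syt4, 337 and 397, were also low.

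Cthrc1, a secreted collagen triple helix protein, was at 12.1 to 34.6 against 7366 to 8598, at least 42.5-fold higher. Sparcl1, a matrix glycoprotein of glia, rose from 352 ± 69.9 to 68137 ± 3497 (SD), a difference of 7.55 ± 0.25. Chl1, a neural cell adhesion molecule, rose from 288 ± 86.2 to 48359 ± 1488 (7.35 ± 0.23). Another probe set of Chl1 was above background on 1 array of each group (means 134 and 102) and did not pass the test. Wfdc18, a small secreted protein with a protease inhibitor fold, had mean signals of 93.7 and 18375 and was above background on 1 embryonic transduced array. The same held for Omg, an oligodendrocyte myelin glycoprotein (150.0 against 23831), and for Neto1, an auxiliary subunit of glutamate receptors (125 against 17343). Rlbp1, a retinoid binding protein, had means of 158 and 25568 and Gpr37l1, an orphan receptor of glia, 159.6 and 22173, each above background on 2 embryonic transduced arrays. Control means, embryonic before postnatal, were 1287 and 26031 for Rlbp1, 1229 and 18872 for Gpr37l1 and 3884 and 19208 for Omg. They were 1302 and 35398 for Sparcl1, 4357 and 16695 for Chl1 and 8528 and 14573 for Neto1. For each of these genes the embryonic transduced mean was below both control means. Cthrc1 had control means of 669 and 767, and Wfdc18 of 140 and 45.7.

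Genes of oligodendrocyte progenitors were higher in postnatal transformed cells. Of 16 measured members of this list, 12 were called higher and 0 lower, with a median difference of 2.97, against -0.14 over all genes. In control cells 9 were called higher and 0 lower (median 1.09), 5 and 0 without postnatal control arrays 4 and 5. The mean log2 level of the list ran from 10.1 to 10.4 in embryonic transduced and 13.4 to 13.5 in postnatal transformed arrays. It ran from 12.6 to 12.9 in embryonic control and 13.6 to 14.6 in postnatal control arrays, so embryonic transduced arrays were the low group. Pdgfra, the receptor for platelet-derived growth factor A, was at 713, 324, 722, 774 and 446 on embryonic transduced and 31203, 31376, 29989, 34144 and 31594 on postnatal transformed arrays, a difference of 5.77 ± 0.19 (adjusted p = 1.34e-16). The groups were far apart, and the control means were 7629 in embryonic and 47465 in postnatal cells. Its other 2 probe sets had means of 246 and 9120 and of 306 and 4286, with 4 and 3 embryonic transduced arrays above background. Lhfpl3, a tetraspan membrane protein of this lineage, rose from 564 ± 107 to 52291 ± 1922 (6.51 ± 0.12). Sox10, the transcription factor that directs oligodendrocyte and neural crest gene programmes, had means of 189 and 25251 and was above background on 2 embryonic transduced arrays. The embryonic control mean of Sox10 was 2601, between those values.

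Genes of later stages of the lineage were called in 1 direction only between the modified groups. Of 16 myelin and premyelinating genes, 7 were called higher and 0 lower (median 0.78). In control cells 10 were called higher (median 1.69), 6 without postnatal control arrays 4 and 5. The difference of the age differences, modified minus control cells, called 2 higher and 5 lower, or 3 and 1 without those arrays. Ugt8a, the enzyme that makes the myelin lipid galactosylceramide, rose from 261 ± 70.0 to 32149 ± 1932, a difference of 6.89 ± 0.22 with 4 embryonic transduced arrays above background. Bcas1, a marker of early myelinating cells, rose from 4074 ± 198 to 49435 ± 637 (3.597 in log2). Mog, a protein of mature myelin, and Ermn, an oligodendrocyte cytoskeletal protein, were below background on all 10 modified arrays; both were chosen after their values were seen.

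Genes used as Schwann cell and neural crest markers were called higher for 10 of 14 members and lower for 2 (median 2.45). Of the 10, Cdh19, Sox10 and S100b are also genes of oligodendrocyte progenitors or astrocytes. Erbb3, a neuregulin receptor, rose from 553 ± 213 to 9466 ± 239.5 (4.14 ± 0.32). The 2 that fell were Egr2, a zinc finger factor of myelinating Schwann cells that is also an immediate early gene (-4.50 ± 0.20), and Mia, a secreted protein of melanocytic cells, which was above background on 4 embryonic transduced arrays and 1 postnatal transformed array (means 306 and 64.5). Mia was chosen after its value was seen.

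Astrocyte genes moved both ways. Of 15 members, 3 were called higher and 3 lower, and the list's median (-0.13) turned to 0.16 after quantile normalization. The 3 that fell were Gja1, the gap junction protein connexin 43 (from 27214 ± 1505 to 844 ± 80.8), Fgfr3, a fibroblast growth factor receptor (difference -3.35 ± 0.15), and Sox9, a gliogenic transcription factor (-2.66 ± 0.28). The 3 that rose were S100b, a calcium binding protein (6.57 ± 0.51, with 4 embryonic transduced arrays above background), Slc1a2, the glial glutamate transporter (1.95 ± 0.17, or 0.83 and below 2-fold with its probe sets averaged), and Agt, angiotensinogen, which was below background on every embryonic transduced array and had a postnatal transformed mean of 816. Gfap, the astrocyte intermediate filament, ran from 63.6 to 411 and from 35 to 431, above background on 4 arrays of each group, with a difference of -0.09 ± 0.80 (adjusted p = 0.938). Agt, Gja1 and Gfap were chosen after their values were seen.

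Neuronal and synaptic genes were higher in postnatal transformed cells. Of 17 neuronal genes, 13 were called higher and 1 lower (median 2.52), while 4 were called higher and 2 lower in control cells (1 and 2 without postnatal control arrays 4 and 5). The difference of the age differences, tested directly, called 13 of the 17 higher and 2 lower in modified than in control cells (12 and 2 without those arrays), against 9.36% and 9.75% of all genes. The mean log2 level of the list ran from 9.10 to 9.38 in embryonic transduced, 11.1 to 11.4 in postnatal transformed, 11.1 to 11.2 in embryonic control and 11.4 to 11.5 in postnatal control arrays, so embryonic transduced arrays were the low group. Gap43, a protein of growing axons, was at 1217, 1050, 914, 1214 and 1106 against 52503, 52332, 50627, 47938 and 48468, a difference of 5.50 ± 0.14 (adjusted p = 3e-18), with control means of 27585 and 18760. Stmn3, a microtubule regulator, rose from 860.2 ± 94.9 to 13819 ± 587 (3.99 ± 0.08). The member that fell was Rbfox3, a splicing factor of mature neurons, from 1501 ± 139.9 to 195 ± 95.7, with 4 postnatal transformed arrays above background; it was chosen after its value was seen.

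Ion channel and vesicle genes showed more rises than falls. Of 29 potassium channel genes 16 were called higher and 4 lower, of 21 glutamate receptor genes 10 and 1, and of 29 synaptotagmin and vesicle genes 12 and 3. In control cells these counts were 9 and 2, 7 and 1, and 1 and 6. Without postnatal control arrays 4 and 5 they were 10 and 2, 6 and 1, and 1 and 4. The mean log2 level of the glutamate receptors ran from 7.4 to 7.6 in embryonic transduced and 9.0 to 9.4 in postnatal transformed arrays. It ran from 9.1 to 9.4 in embryonic control and 9.7 to 9.8 in postnatal control arrays. The median of the glutamate receptors was 1.11, or 0.21 with members below background in a group set at their bound. Gria4, a subunit of AMPA receptors, rose from 731 ± 185 to 31271 ± 2670 (5.42 ± 0.16), and its control means were 7468 and 8718. Among 15 integrins 4 were called higher and 3 lower; Itga8, a receptor for matrix proteins with the RGD motif, rose from 593 ± 55.6 to 38246 ± 2193 (5.98 ± 0.46). Prrx1, a homeobox factor of mesenchyme, rose from 472 ± 83.2 to 24169 ± 446 (5.65 ± 0.23), with 6 of 15 fibroblast genes called higher and 3 lower. The fibroblast list's mean log2 level ran from 7.98 to 8.41 and from 8.66 to 8.999.

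Stem cell genes were called lower more often than higher, and 8 of 16 were not called. Of these genes of neural stem cells and radial glia 7 were called lower and 1 higher (median -0.57), and in control cells 9 were called lower and 1 higher, 5 and 1 without postnatal control arrays 4 and 5. Prom1 was at 21150, 21036, 21308, 20960 and 19234 on embryonic transduced arrays and 192, 96.3, 95.7, 45.4 and 185 on postnatal transformed arrays, of which 1 was above background. Hes5, a repressor of differentiation that Notch induces, was at 31977, 34512, 30370, 32412 and 42997 against 369, 711, 658, 640.5 and 778, a difference of -5.77 ± 0.27 (adjusted p = 7.74e-14). Control means of Hes5 were 44604 in embryonic and 9025 in postnatal cells, and the modified minus the control age difference was -3.38. Hopx, a homeodomain protein of outer radial glia, fell from 22306 ± 1995 to 1695 ± 93.4 (-3.70 ± 0.14). The member called higher was Fabp7, a fatty acid binding protein of radial glia, with 34427 ± 2373 against 108130 ± 2197 (1.65 ± 0.07). Its control means were 127280 in embryonic and 108200 in postnatal cells, so embryonic transduced arrays were the low group.

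Of 23 Notch pathway genes 8 were called lower, 3 higher and 12 not, with a median of -0.46. In control cells 7 were called lower and 2 higher, 5 and 1 without postnatal control arrays 4 and 5. Nrarp, a feedback inhibitor that Notch induces, was at 33538, 32290, 32674, 33917 and 37326 against 1137, 909.9, 1181, 1146 and 1153, a difference of -4.93 ± 0.13. The promoters of Hes5 and Nrarp are shown because Hes5 is a textbook direct target of the Notch effector Rbpj. Promoter sequences, 250 bases before to 50 after the transcript start, are those of RefSeq (GRCm38.p6), with matches to the letters TGGGAA on either strand in capitals. In the Hes5 promoter (chr4:154960673-154960972, plus strand) there were 2 matches, in the Nrarp promoter (chr2:25180508-25180807, plus strand) 0.
Hes5: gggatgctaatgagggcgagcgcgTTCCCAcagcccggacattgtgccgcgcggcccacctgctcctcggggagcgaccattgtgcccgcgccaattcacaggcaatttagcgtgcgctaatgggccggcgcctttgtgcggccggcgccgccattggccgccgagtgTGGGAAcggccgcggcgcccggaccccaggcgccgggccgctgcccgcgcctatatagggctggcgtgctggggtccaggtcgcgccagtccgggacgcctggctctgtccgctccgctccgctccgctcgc
Nrarp: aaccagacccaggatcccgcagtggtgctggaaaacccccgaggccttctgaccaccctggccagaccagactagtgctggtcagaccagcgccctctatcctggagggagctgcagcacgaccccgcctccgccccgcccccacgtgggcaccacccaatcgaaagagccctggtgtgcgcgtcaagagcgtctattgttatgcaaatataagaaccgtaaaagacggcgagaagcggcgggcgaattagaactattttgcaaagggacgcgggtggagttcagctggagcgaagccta
The letters were held by 25.6% of 32851 RefSeq promoters and by 5 of 22 promoters of Notch list members. A match is a run of letters and no measure of binding.

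Of 11 Hedgehog genes 6 were called lower and 1 higher (control cells 7 and 0); Smo, the signal transducer of the pathway, fell from 8523 ± 432 to 2175 ± 143 (-1.96 ± 0.10). Of 27 Wnt genes 10 were called lower and 2 higher (control cells 9 and 0, or 7 and 0 without postnatal control arrays 4 and 5); Fzd7, a Wnt receptor, fell from 37803 ± 2104 to 991 ± 97.7 (-5.23 ± 0.13). Of 25 BMP pathway and Id genes 5 were called lower and 3 higher, shares near the 13.7% and 11.7% of all genes. The Id genes, which block basic helix-loop-helix factors, did not move as one: Id1 fell by 3.896 in log2 (from 18089 to 1199) while Id2 rose by 3.15 (from 3893 to 34801). Embryonic and postnatal control means were 6156 and 7956 for Id1 and 35670 and 44290 for Id2. The embryonic transduced mean was thus the highest of the groups for Id1 and the lowest for Id2.

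Hox genes were lower at the postnatal age in modified and in control cells. Of 33 measured Hox genes 22 were called lower in postnatal transformed cells and 1 higher (median -2.58, or -1.25 with members below background set at their bound), and 24 were lower and 0 higher in postnatal control cells (median -2.97). By cluster, 6 of 9 HoxA, 6 of 9 HoxB, 6 of 7 HoxC and 4 of 8 HoxD genes were called lower. Hoxa9 was at 40327, 42202, 38159, 38111 and 33675 on embryonic transduced and 15.8, 67.4, 25.8, 149 and 119 on postnatal transformed arrays, of which 1 was above background. Its control means were 10999 and 44.1, and it was above background on 0 postnatal control arrays. With both postnatal groups at the floor, the age differences of modified and control cells could not be compared for this gene. Hoxa10 showed 10337 to 11128 against 20.1 to 201, Hoxc10 was at least 35.3-fold lower and Hoxb2 at least 28.5-fold lower. The gene called higher was Hoxb7 (means 95.6 and 229.8), above background on 1 embryonic transduced array; it was chosen after its value was seen, and its call ended without embryonic transduced array 2, 3 or 4 (1.14 to 1.19) or postnatal transformed array 1, 4 or 5 (1.21 to 1.31). The difference of the age differences called 9 Hox genes higher and 3 lower in modified cells. Without postnatal control arrays 4 and 5 these counts were 10 and 2. Members at background in both postnatal groups carry no such comparison. Of the 33 genes 7 were above background on all postnatal transformed arrays and 1 on all postnatal control arrays.

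Calls for brain patterning factors went both ways. Of 22 midbrain and hindbrain factors 9 were called lower and 1 higher, as against 9 and 1 in control cells (8 and 1 without postnatal control arrays 4 and 5). Zic1, a zinc finger factor of the dorsal neural tube, was at 816 to 1701 against 11.8 to 32.5, at least 7.98-fold lower. Its control means were 18231 in embryonic and 1433 in postnatal cells, so both modified groups were below the control of their age. Of 23 forebrain factors 5 were called lower and 2 higher, while 2 were lower and 6 higher in control cells (1 and 6 without those arrays). Sp8, a zinc finger factor of the forebrain, had means of 4786 and 88 with 2 postnatal transformed arrays above background, and control means near background (121 and 133). Otx1, an anterior homeobox factor, had means of 373 and 82.1 in modified cells but 20.2 and 710.0 in embryonic and postnatal control cells, opposite orders of the ages.

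Of 23 Polycomb and DNA methylation genes 11 were called lower, 0 higher and 12 not (median -0.88), and in control cells 1 was called lower, or 0 without postnatal control arrays 4 and 5. The 11 included genes that oppose these marks: Kdm6b, which removes the Polycomb mark from histone H3 (means 12674 and 3891), and Tet1, which oxidises methylated cytosine (7057 and 1017). Ezh2, the methyltransferase of Polycomb repressive complex 2, fell from 25610 ± 1393 to 4765 ± 385 (-2.42 ± 0.16). Suz12, a further subunit of that complex, fell from 16675 ± 1061 to 6218 ± 317 (-1.42 ± 0.07); its difference of the age differences was called only without postnatal control arrays 4 and 5 (-1.04). Transcripts of the cell cycle, with which some of these genes are known to vary, fell in the same comparison, and their part in this result was not tested.

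**Figure D2:**
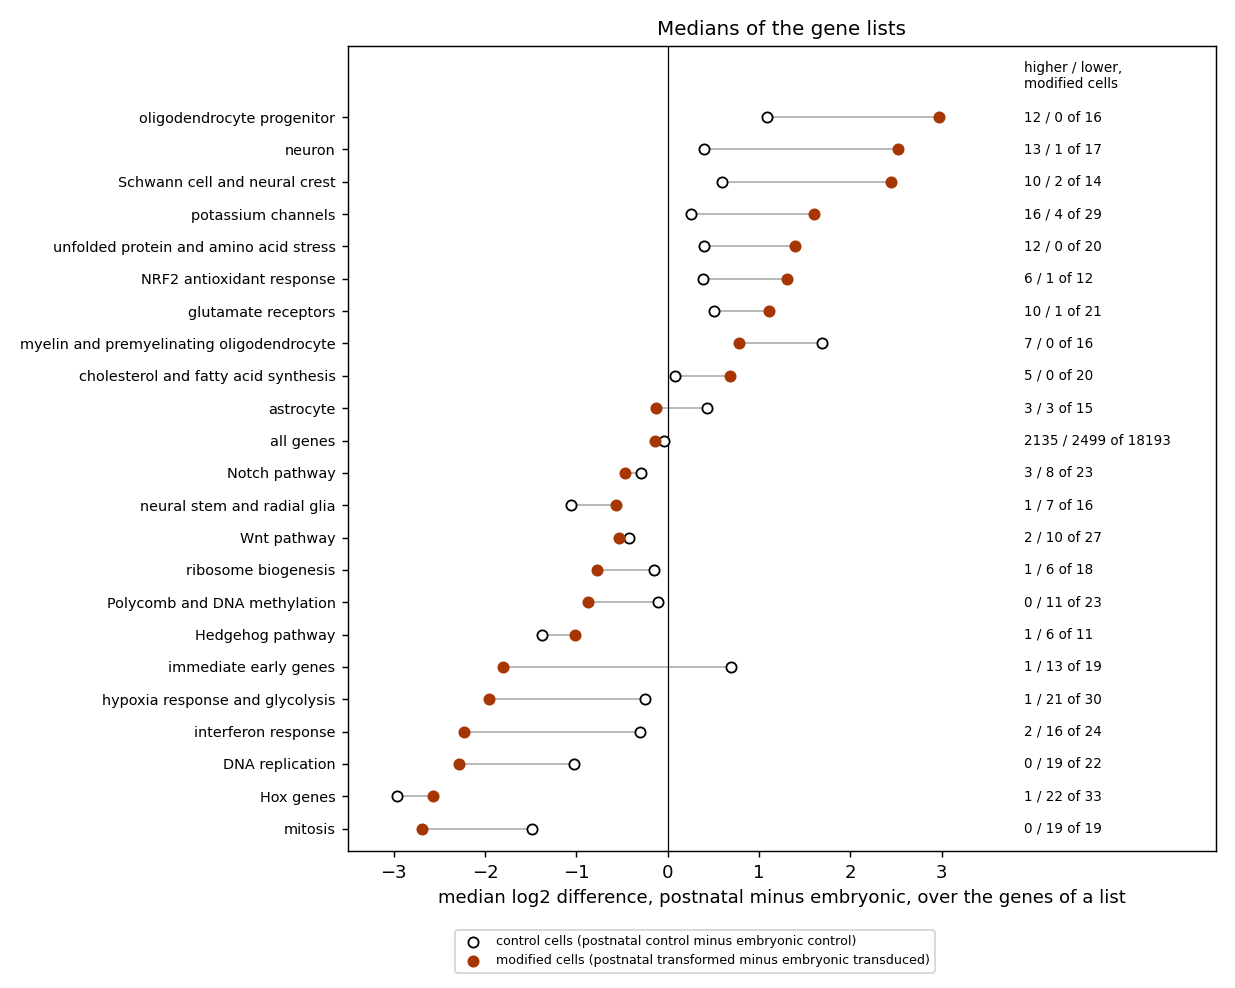
Median log2 difference, postnatal minus embryonic, over the genes of each list in modified cells (filled) and control cells (open), with the number of members called higher and lower in modified cells. Oligodendrocyte progenitor and neuronal genes lie among the highest and mitosis and Hox genes lowest; immediate early genes lie on opposite sides of 0 in modified and control cells.

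Genes induced by low oxygen were lower in postnatal transformed cells. Of 30 genes of the hypoxia response and glycolysis 21 were called lower and 1 higher (median -1.96), and in control cells 2 were lower and 2 higher (median -0.25; 7 lower and 2 higher without postnatal control arrays 4 and 5). In the difference of the age differences 20 were called lower and 1 higher, 18 and 1 without those arrays. The mean log2 level of the list was 14.1 to 14.3 in embryonic transduced arrays and 11.8 to 11.98 in postnatal transformed arrays, beside 11.99 to 12.1 in embryonic control and 11.6 to 12.3 in postnatal control arrays. Embryonic transduced arrays therefore lay above every array of the other 3 groups.

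Ankrd37, an ankyrin repeat protein induced by hypoxia, was at 30067, 31957, 29225, 29646 and 26221 on embryonic transduced and 17.7, 125, 263, 26.2 and 93.2 on postnatal transformed arrays, of which 1 was above background. The control means were 892 and 988, and the difference of the age differences was called (adjusted p = 7.41e-10, limma). P4ha2, a collagen prolyl hydroxylase, was at 8704, 9155, 9400, 10459 and 6638 against 318, 329, 342, 342 and 186, with 4 postnatal transformed arrays above background. Pdk1, a kinase that inhibits pyruvate dehydrogenase, fell from 39055 ± 2947 to 877 ± 217 (-5.49 ± 0.25), and Hk2, a hexokinase, from 42373 ± 885 to 2327 ± 208 (-4.18 ± 0.23). Both were chosen after their values were seen. Slc2a3, a glucose transporter, was at 57196, 58907, 59742, 66648 and 54560 against 4960, 4951, 5080, 4093 and 4588 (-3.65 ± 0.09, adjusted p = 1.65e-18). No array of one group reached the range of the other for these genes.

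Oxygen sensing and glycolytic enzymes were included. Egln1, the prolyl hydroxylase that marks the hypoxia-inducible factor for degradation, fell from 30587 ± 1216 to 7792 ± 594 (-1.97 ± 0.08). Ero1a, an oxidase of the endoplasmic reticulum, fell from 71321 ± 3853 to 11778 ± 544 (-2.60 ± 0.11), and Pfkl, a phosphofructokinase, from 42490 ± 4260 to 2961 ± 76.3 (-3.83 ± 0.17). Slc16a3, a lactate exporter that is not on the list, was below background on every postnatal transformed array and at least 52.4-fold lower. The member that rose was Pfkp, another phosphofructokinase (1.53 ± 0.11; control cells 1.56), chosen after its value was seen; with its probe sets averaged the difference was 0.79, below 2-fold.

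Promoters of 3 members that fell widely are shown because the hypoxia-inducible factors bind a core of the letters ACGTG, in capitals here on either strand. RefSeq (GRCm38.p6) places them at chr8:45999801-46000100, minus strand for Ankrd37, at chr11:54100674-54100973, plus strand for P4ha2 and at chr6:82774405-82774704, minus strand for Hk2, and each window of 300 bases held 2 matches. The promoters of Pdk1, which fell more widely than P4ha2 and Hk2, held 0 matches, and so did that of Pfkl.
Ankrd37: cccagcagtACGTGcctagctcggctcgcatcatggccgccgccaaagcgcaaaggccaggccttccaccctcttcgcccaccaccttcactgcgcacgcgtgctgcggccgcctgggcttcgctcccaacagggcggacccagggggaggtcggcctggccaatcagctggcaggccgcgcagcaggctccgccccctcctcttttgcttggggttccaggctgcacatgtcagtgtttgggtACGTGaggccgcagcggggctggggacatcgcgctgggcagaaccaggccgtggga
P4ha2: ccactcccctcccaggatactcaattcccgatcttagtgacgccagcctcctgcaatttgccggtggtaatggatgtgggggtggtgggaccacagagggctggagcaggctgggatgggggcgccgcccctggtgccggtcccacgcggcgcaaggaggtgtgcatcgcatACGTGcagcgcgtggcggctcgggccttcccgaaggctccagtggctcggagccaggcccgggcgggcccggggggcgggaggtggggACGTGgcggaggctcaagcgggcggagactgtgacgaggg
Hk2: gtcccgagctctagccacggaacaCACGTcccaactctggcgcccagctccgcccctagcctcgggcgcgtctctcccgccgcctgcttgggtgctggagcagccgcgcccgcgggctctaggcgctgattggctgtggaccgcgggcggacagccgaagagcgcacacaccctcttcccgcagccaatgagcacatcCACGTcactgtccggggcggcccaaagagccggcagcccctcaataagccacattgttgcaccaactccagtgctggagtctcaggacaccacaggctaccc
Of 23 promoters of members called lower 15 held the letters (65.2%), of 38 promoters of all measured members 22 (57.9%) and of all 32851 promoters 19.6%. The list was drawn up from textbook targets of these factors, so a share above that of all promoters describes the list and is no independent evidence.

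Immediate early genes, which growth factor signals induce within minutes, were also lower. Of 19 members 13 were called lower and 1 higher (median -1.80), while in control cells 0 were lower and 6 higher (median 0.70). The difference of the age differences called 12 lower and 0 higher, 13 and 0 without postnatal control arrays 4 and 5. The mean log2 level of the list was 12.8 to 13.1 in embryonic transduced, 11.004 to 11.2 in postnatal transformed, 10.2 to 10.6 in embryonic control and 10.9 to 11.4 in postnatal control arrays. Egr3, a zinc finger transcription factor, was at 21780, 21575, 19426, 17166 and 20743 against 513, 600.3, 679, 567 and 690.3 (-5.01 ± 0.36), whereas its control means were 986 in embryonic and 5104 in postnatal cells. Egr2 fell from 16889 ± 971 to 750.5 ± 185, and Egr1 from 67756 ± 6270 to 14117 ± 2776 (-2.28 ± 0.12). Btg2, an antiproliferative factor, fell from 31103 ± 2940 to 3366 ± 295 (-3.20 ± 0.15). The member that rose was Nr4a1, an orphan nuclear receptor (1.08 ± 0.13; control cells 1.31), chosen after its value was seen; without embryonic transduced array 5 its difference was 0.97, below 2-fold. Of 17 outputs of the ERK pathway 3 were called lower and 3 higher; Dusp5, a phosphatase of ERK, was at least 22.1-fold lower and Ccnd1, cyclin D1, rose from 13352 ± 1480 to 101540 ± 4239 (2.93 ± 0.20).

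**Figure D3:**
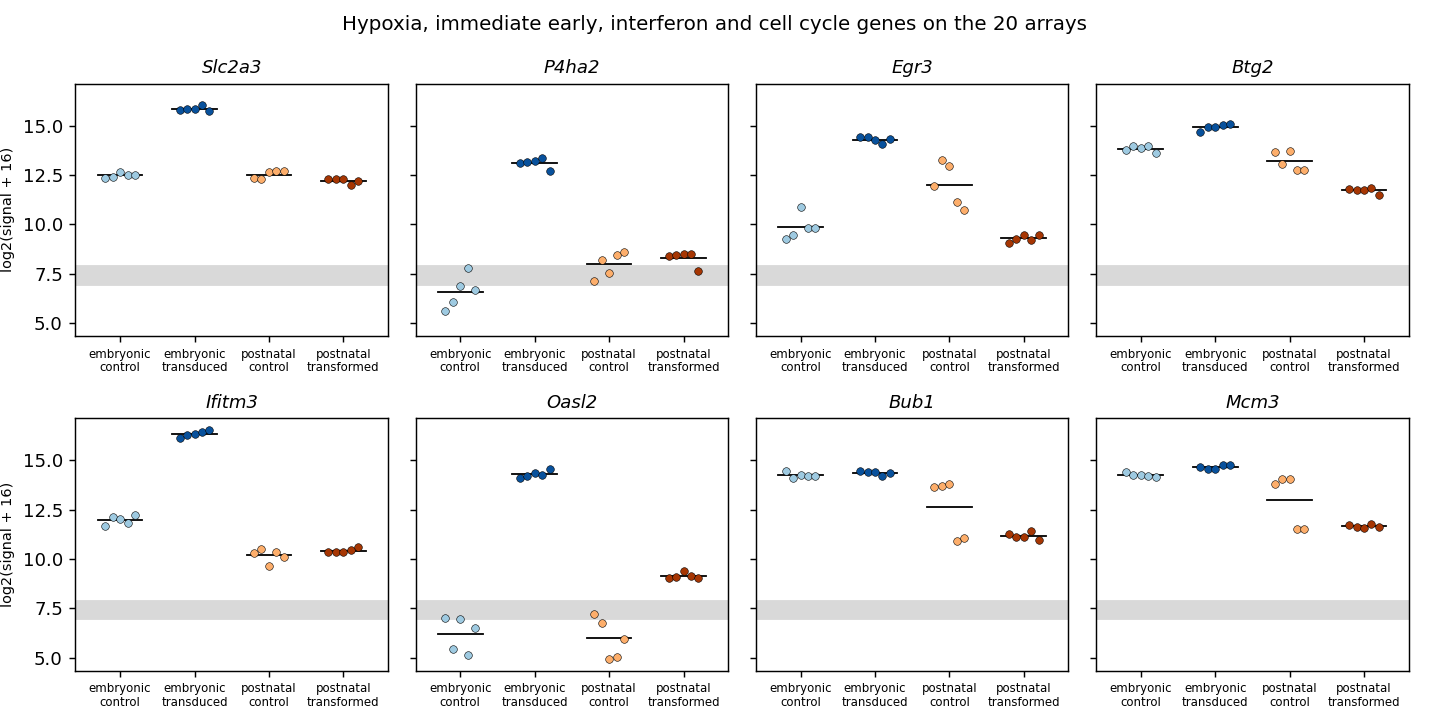
Signal of 8 genes of the hypoxia, immediate early, interferon and cell cycle lists on the 20 arrays, as log2(signal + 16), with array points, group means (lines) and the background of all arrays (grey). Slc2a3, P4ha2, Egr3, Btg2, Ifitm3 and Oasl2 are highest in embryonic transduced arrays, and Bub1 and Mcm3 are low in postnatal transformed arrays and in 2 postnatal control arrays.

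Interferon-stimulated genes were lower in postnatal transformed cells. Of 24 members 16 were called lower and 2 higher (median -2.23), against 4 and 2 in control cells (4 and 1 without postnatal control arrays 4 and 5), and the difference of the age differences called 14 lower and 2 higher. Oasl2, an oligoadenylate synthetase-like antiviral protein, was at 17545, 19080, 21206, 19429 and 24237 against 511, 521, 654, 554 and 511 (-5.16 ± 0.40), with control means of 68.7 and 60.1. Both modified groups were thus above both control groups for Oasl2, and embryonic transduced arrays were the highest. The mean log2 level of the list was 11.7 to 12.1 in embryonic transduced, 9.95 to 10.1 in postnatal transformed, 7.92 to 8.18 in embryonic control and 7.41 to 8.05 in postnatal control arrays. Bst2, a tether of virus particles, fell from 17232 ± 1547 to 721 ± 87 (-4.55 ± 0.25), and Ifih1, a sensor of double-stranded RNA, from 11789 ± 2241 to 643 ± 87.2 (-4.15 ± 0.29). Irf9, a factor of the interferon transcription complex, fell from 8973 ± 536 to 1653 ± 80.9 (-2.43 ± 0.17). Ifitm3, an antiviral membrane protein that is not on the list, was at 72923, 79375, 82541, 89878 and 95678 against 1301, 1300, 1278, 1379 and 1556 (-5.93 ± 0.13, adjusted p = 3.12e-19).

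The exceptions were 2 members of 1 family. Ifit2 rose (1.89 ± 0.35), and Ifit3 was called at 1.27 ± 0.51 (adjusted p = 0.0432), a call that ended when any single modified array was left out; both were chosen after their values were seen. Of 12 genes of MHC class I presentation 2 were called lower and 0 higher; Tap1, a peptide transporter induced by interferon, fell from 5073 ± 421 to 1054 ± 76.6 (-2.25 ± 0.19). Acute phase and complement genes were called higher for 6 of 18 members and lower for 3. Cp, the copper oxidase ceruloplasmin, rose from 967 ± 167 to 6265 ± 654 (2.69 ± 0.41). In control cells Cp was called in the opposite direction, with means of 2183 in embryonic and 247 in postnatal arrays (-3.47). Il33, a cytokine stored in nuclei, had means of 183 and 7974, with 2 embryonic transduced arrays above background.

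Cell cycle transcripts were lower in postnatal transformed cells. Of 19 mitosis genes 19 were called lower (median -2.69) and of 22 DNA replication genes 19 (median -2.28), with 0 called higher in both lists. Bub1, a kinase of the spindle checkpoint, was at 22266, 21634, 21381, 19226 and 20817 against 2464, 2201, 2201, 2743 and 1956 (-3.19 ± 0.42, adjusted p = 1.03e-06). Aurkb, a mitotic kinase, fell from 11476 ± 1056 to 1044 ± 133 (-3.44 ± 0.47), and Mcm3, a subunit of the replicative helicase, from 25935 ± 1896 to 3251 ± 186 (-2.99 ± 0.38).

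The control cells did not give a single value for this programme. Bub1 was at 22235, 17926, 19262, 19220 and 19233 on embryonic control arrays and at 12826, 13351, 14213, 1920 and 2098 on postnatal control arrays, of which arrays 4 and 5 were as low as postnatal transformed arrays and arrays 1 to 3 lay between those and the embryonic control range. With all arrays 18 of 19 mitosis genes were called lower in postnatal control cells, and without arrays 4 and 5 the count was 0. The difference of the age differences called 4 mitosis genes lower with all arrays and 19 without those 2. For DNA replication these counts were 9 and 19.

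Regulators of the first phase of the cycle went in both directions. Of 21 genes 8 were called lower and 3 higher. The 3 that rose were Cdkn2b, an inhibitor of cyclin D kinases (from 2825 ± 467 to 27067 ± 234, 3.27 ± 0.19), Ccnd1, and Ccnd2, cyclin D2 (from 14336 ± 2019 to 100940 ± 4317, 2.83 ± 0.16). Cdkn1c, a kinase inhibitor expressed from the maternal allele, was below background on every postnatal transformed array and at least 17.9-fold lower. Rb1, the retinoblastoma protein gene on chromosome 14, fell from 12188 ± 1161 to 3574 ± 177 (-1.76 ± 0.09). Cdkn2a, the locus of the kinase inhibitor Ink4a and of Arf, was at 12276 ± 1643 and 17186 ± 1551, a difference of 0.49 ± 0.24 (adjusted p = 0.0949), while its control means were 287 and 617. This probe set was not assigned to either product.

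Mycn, a growth-promoting transcription factor, was high in both modified groups. It was at 93443, 108760, 110210, 121943 and 116234 on embryonic transduced and 122763, 119285, 119549, 110307 and 114248 on postnatal transformed arrays, a difference of 0.09 ± 0.28 (adjusted p = 0.81), beside control means of 529 and 466. The ranges of the modified groups overlapped. Its other 2 probe sets differed by -0.15 and -0.30 between the modified groups and did not pass the test. One of them had means of 2570 and 2321 in embryonic transduced and postnatal transformed arrays beside 1327 and 1728 in embryonic and postnatal control arrays, and the other had 718 and 586 beside 331 and 406. Of 18 ribosome biogenesis genes 6 were called lower and 1 higher.

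Of 20 genes of the unfolded protein and amino acid response 12 were called higher and 0 lower (median 1.39), and 5 and 0 in control cells (6 and 0 without postnatal control arrays 4 and 5). Ddit3, a transcription factor of this response, rose from 3446 ± 615 to 31213 ± 1790 (3.19 ± 0.12), and Atf5, a related factor, from 1774 ± 357 to 17276 ± 974 (3.29 ± 0.19). Of 12 targets of the antioxidant factor NRF2 6 were called higher and 1 lower; Me1, the malic enzyme that supplies NADPH, rose from 3071 ± 296 to 39038 ± 684 (3.67 ± 0.10), and the member that fell was Gsta4, a glutathione transferase (-4.08 ± 0.68), chosen after its value was seen. Of 20 genes of cholesterol and fatty acid synthesis 5 were called higher and 0 lower, among them Fasn, the fatty acid synthase, from 13782 ± 899 to 59576 ± 3203 (2.11 ± 0.07). The other 15 were not called, and the median was 0.68; without the 2-fold threshold 19 were higher.

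Surface and matrix gene families moved both ways. Of 27 cadherins and protocadherins 13 were called higher and 4 lower (median 0.72), of 25 brain proteoglycans and tenascins 10 and 4 (median 0.68), and of 22 matrix proteases and inhibitors 7 and 5. Of 28 receptor tyrosine kinases and their ligands 9 were called higher and 5 lower. Of 35 axon guidance genes 10 were called higher and 10 lower, with a median of -0.12 that turned to 0.03 after quantile normalization. Of 12 markers of proneural glioma 7 were called higher and 0 lower, and of 13 markers of mesenchymal glioma 3 and 3; Sox10 is also on the first of these lists. Of 24 imprinted genes 6 were called higher and 7 lower.

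Matrix, transport and junction genes were among the widest falls. Col2a1, the collagen of cartilage, was at 2749 to 3974 against 14.4 to 54, at least 21.4-fold lower, with low control means (32 and 44). Among 26 collagens 7 were called higher and 7 lower. Serpinh1, a collagen chaperone, had means of 6492 and 121 with 2 postnatal transformed arrays above background. Heph, a copper oxidase for iron export, was at least 28.3-fold lower, and Gjc1, the gap junction protein connexin 45, fell from 14395 ± 1412 to 235 ± 30.5 (-5.85 ± 0.27). Serpinh1, Heph and Gjc1 were also called lower in postnatal than in embryonic control cells. Their embryonic and postnatal control means were 27430 and 3372, 302 and 84.7, and 12955 and 1246. For Heph 1 postnatal control array was above background.

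**Figure D4:**
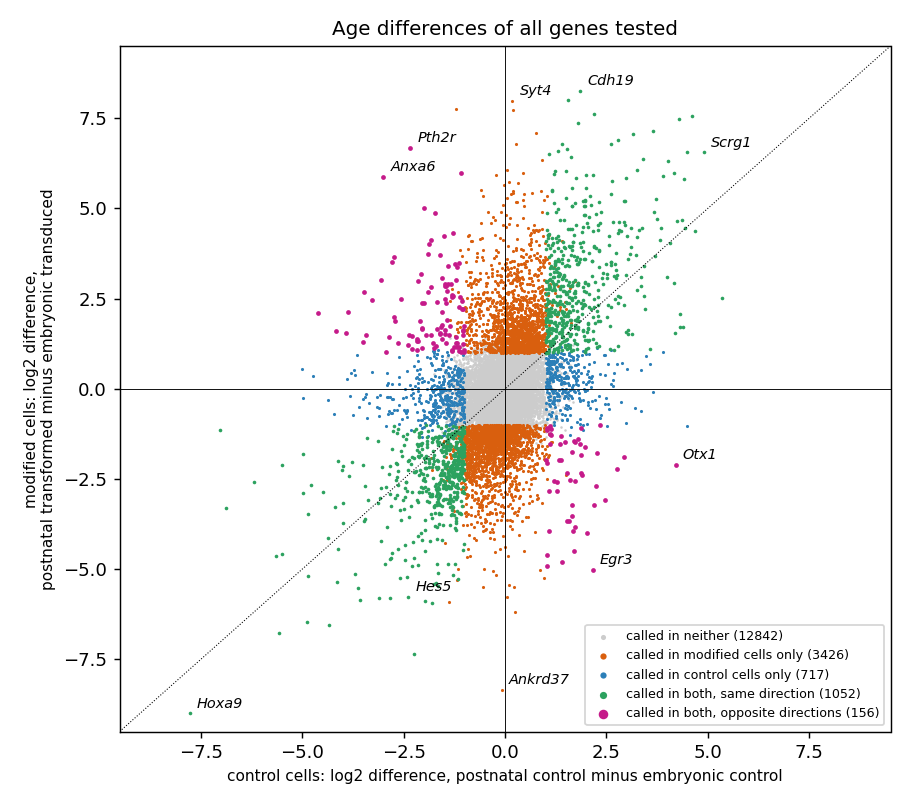
Log2 age difference of each gene in control cells (horizontal) and in modified cells (vertical), coloured by call; the dotted line marks equal differences. 1052 genes were called in the same direction in both, 156 in opposite directions and 3426 in modified cells with no call in control cells.

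The age differences of modified and of control cells, which share no array, were set side by side. Of the 4634 genes called in modified cells 1052 were called in the same direction in control cells, which is 22.7% of the modified and 54.6% of the control calls; 515 were higher and 537 lower in postnatal cells. A further 156 were called in opposite directions, 104 of them higher in postnatal transformed and lower in postnatal control cells and 52 the reverse. The direct test of the difference called 3475 genes (19.1%), 1702 higher (9.36%) and 1773 lower (9.75%) in modified cells. Of the 3426 genes called in modified but not in control cells, 2092 passed that test. Without postnatal control arrays 4 and 5, 703 genes were shared in direction, 135 were opposite and 2470 were called in modified but not control cells and passed the test.

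Genes were named among those higher at the postnatal age in both comparisons by the smaller of the 2 changes. Scrg1, a small secreted protein of glia, rose from 349 ± 77.4 to 33496 ± 1108 in modified cells, with control means of 1083 and 32845. Afap1l2, an actin-associated adaptor, rose from 338 ± 73.1 to 19574 ± 1582 (5.81 ± 0.23, control cells 4.40). Slc1a1, a glutamate and cysteine transporter, rose by 4.44 in modified and 4.42 in control cells, a difference between the comparisons of 0.02. Postnatal control arrays 4 and 5 were the brightest of their group for Slc1a1 (46556 and 53152), and without them the control rise was 3.55 and the difference 0.89 (adjusted p = 0.00228, limma), still below 2-fold. Among genes lower in both, Hoxd3os1, an antisense transcript of the HoxD cluster, had means of 1982 and 54.9 with 1 postnatal transformed array above background; array probes of antisense and sense transcripts were not checked against each other. Fndc3c1, a fibronectin domain protein, fell by 4.64 in modified and fell by 5.64 in control cells, a difference that was called only without postnatal control arrays 4 and 5 (1.28).

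Opposite calls included genes that were high in embryonic control and low in embryonic transduced arrays. Anxa6, a membrane-binding annexin, had means of 133 in embryonic transduced and 7303 in postnatal transformed arrays, beside 11108 and 1617 in the controls of those ages; 2 of its 4 probe sets were dim and did not pass the test. Cpne8, a copine, had 1255, 14371, 9982 and 1776 in the same order of groups. Tafa4, a secreted protein of neurons, had 41.9, 583, 1995 and 327. Cdc42ep5, an effector of the GTPase Cdc42, had 448, 3445, 1354 and 168; with its probe sets averaged the modified difference was 0.81 and not called (adjusted p = 0.123, limma). Pth2r, a parathyroid hormone receptor, was at least 47.1-fold higher in postnatal transformed cells and above background on 0 embryonic transduced arrays and 1 postnatal control array, so the size of its difference between the comparisons rests on values at the floor. It had a postnatal transformed mean of 8672 against 96.6 in embryonic transduced arrays, and 489 and 93.2 in embryonic and postnatal control arrays.

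Other opposite calls had the reverse order. Slc35d3, a transporter-like protein of vesicles, had means of 1014 and 97.3 in modified and 62.3 and 441 in control cells, embryonic before postnatal. Its control call rested on postnatal control arrays 4 and 5 (887 and 898); without them the control difference was 1.10 and not called. Ltk, a receptor tyrosine kinase, had 578 and 88.6 against 50.1 and 231. Shcbp1l was at least 1.86-fold lower in postnatal transformed cells and Eps8l1, an actin regulator, at least 2.02-fold lower, and both were higher in postnatal than in embryonic control cells.

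Genes of chromosome 14 were lower as a whole. Among 354 genes of this chromosome with a mean signal over 500, the median difference was -0.87, and 43.8% were called lower and 7.63% higher. On the other 18 autosomes medians lay between -0.18 and 0.25, and 11.1 to 21.0% of genes were called lower. Every postnatal transformed array showed it, with medians of -0.90 to -0.85 against the embryonic transduced mean. The control comparison had a median of 0.01 on chromosome 14, postnatal transformed against postnatal control arrays -0.86, and embryonic transduced against embryonic control arrays 0.05. Of the genes named here Egr3, Ero1a, Irf9 and Rb1 lie on this chromosome, with differences of -5.01, -2.60, -2.43 and -1.76. The number of copies of the chromosome was not measured.

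**Figure D5:**
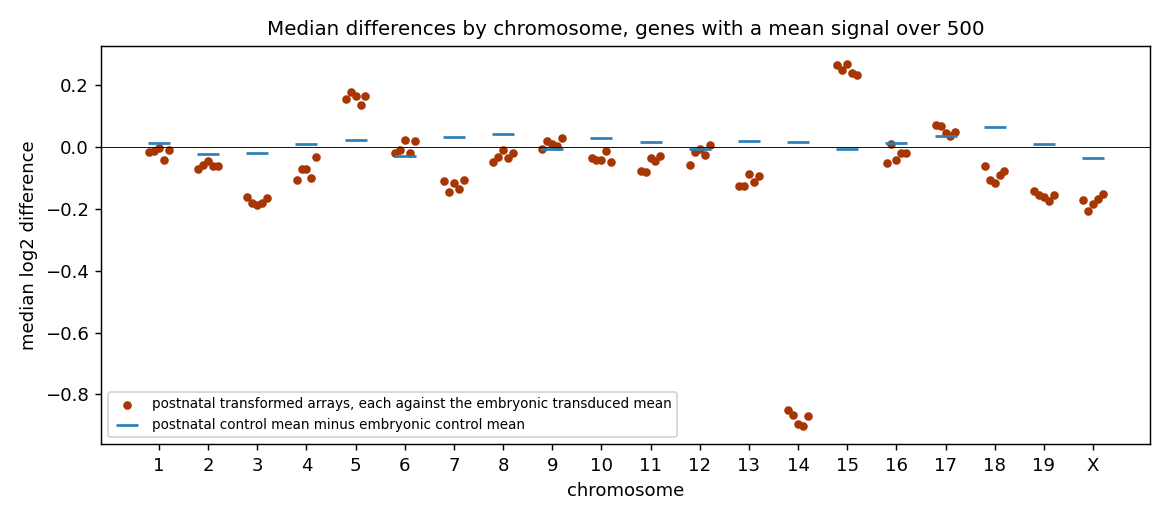
Median log2 difference of genes with a mean signal over 500, by chromosome, for each postnatal transformed array against the embryonic transduced mean (points) and for control cells (horizontal marks). Chromosome 14 lies at -0.90 to -0.85 on the 5 arrays, and the other autosomes have group medians between -0.18 and 0.25.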

How the data were processed

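Total RNA of 20 samples of mouse brain cell lines had been hybridised to 1-colour oligonucleotide arrays. The values are the authors' deposited linear intensity per probe set; their computation is not given in the sources used here, and on every array the mean without the outer 2% of values at each end was 2500. Of 45101 probe sets, 64 controls were left out, 34945 had 1 gene symbol, 932 several, and 9160 are unnamed here. Each of 18193 genes was represented by the probe set of 1 symbol whose mean over the 20 arrays was highest; 9010 genes had more than 1, and 18145 were found in the RefSeq table.

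Limma 3.58.1 (R 4.3.3) fitted 4 group means to log2(intensity + 16) over all 20 arrays, with an intensity trend; the difference of the age differences is a contrast of the same fit. No pair of arrays was identical. Postnatal control arrays 4 and 5 were kept, with results also given without them.

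Named genes were the 12 widest rises and 12 widest falls among calls without array overlap and above background on all arrays of the brighter group. Added to them were up to 5 each way in the difference and in same and opposite calls. Up to 4 called members of each list with the smallest p, 8 markers and Olig2, Sox2, Mycn and Cdkn2a were named as well. Other genes are marked, except Kdm6b, Tet1, Aif1, C1qa, Csf1r, Cd68, Laptm5, Pecam1, Tie1 and Kdr, which the rule did not choose. The checks of 116 named genes did not cover these, nor Mog, Ermn, Itgam, Anpep, Cldn5 and Emcn. Members and lists were chosen with earlier results of these data known. Of 930 listed genes 873 were measured. Alternatives were the offset, scaling, dim filter, probe set averaging, groups fitted, trend, replicate block, fold threshold and arrays left out. Same-numbered arrays did not deviate together (correlations of -0.03 to 0.01). The number of arrays limits the precision. Some listed genes are not analysed here.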

Additional observations from a re-analysis of the deposited data

Results flagged for a closer look

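In the modified groups 10 of 232 tests over 116 named genes found 1 array far from the other 4 (gap over range above Dixon's value of 0.71), and chance alone flags about 1 in 20 groups. In the embryonic transduced group these were Syt4 on array 4 (lowest, 0.733), Omg on array 5 (highest, 0.818), Neto1 on array 3 (lowest, 0.744), Prom1 on array 5 (lowest, 0.839), Smo on array 1 (lowest, 0.875), Ifih1 on array 5 (highest, 0.744) and Rbfox3 on array 3 (lowest, 0.726). In the postnatal transformed group these were P4ha2 on array 5 (lowest, 0.875), Hes5 on array 1 (lowest, 0.737) and Nrarp on array 2 (lowest, 0.853). The groups of these 10 genes did not overlap, and leaving out any modified array kept their calls.

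For 3475 of all genes, and for 99 of the genes named here, the age difference itself differed between modified and control cells (limma, adjusted p below 0.05 and at least 2-fold). The values that follow are log2 differences of the age differences, modified minus control cells. They depend on the offset for genes at background in a group, such as Pth2r, Serpina3n, Cdh19, Cthrc1, Col2a1 and Ankrd37. Their order therefore carries no weight. Hoxc10 was above background on 0 arrays of either postnatal group, and Hoxb2 on 1 postnatal control and 0 postnatal transformed arrays. Zic1 was above it on 0 postnatal transformed arrays. For Hoxc10, Hoxb2 and Zic1 the direction of the value also rests on signals at the floor. The widest positive values were Pth2r at 9.02, Wfdc18 at 8.94, Anxa6 at 8.88, Syt4 at 7.80, Cthrc1 at 7.53, Serpina3n at 6.45, Cdh19 at 6.40, Tafa4 at 6.37 and Neto1 at 6.31. Next came Cpne8 at 6.27, Cp at 6.16, Gap43 at 6.11, Cdc42ep5 at 6.08, Il33 at 5.87, Prrx1 at 5.68, Chl1 at 5.56, Itga8 at 5.53 and Omg at 5.42. These were followed by Lhfpl3 at 5.42, Gria4 at 5.22, Eif2s3y at 4.93, Kdm5d at 4.68, Ugt8a at 4.10, Sox10 at 3.91, Ccnd2 at 3.66, Gpr37l1 at 3.51 and Erbb3 at 3.51. Then came Ccnd1 at 3.38, Stmn3 at 3.37, Me1 at 3.28, Rlbp1 at 3.19, Pdgfra at 3.14, Sparcl1 at 2.93, Uty at 2.90, Cdkn2b at 2.87 and Id2 at 2.84. Lower still were Atf5 at 2.69, P2ry12 at 2.65, S100b at 2.08, Ddit3 at 2.08, Ifit2 at 1.98, Fabp7 at 1.88, Bcas1 at 1.65, Scrg1 at 1.65 and Slc1a2 at 1.52. The least were Afap1l2 at 1.41 and Fasn at 1.40. The widest negative values were Ankrd37 at -8.26, Egr3 at -7.17, Col2a1 at -6.42, Otx1 at -6.31, P4ha2 at -6.21, Egr2 at -6.20, Sp8 at -5.84, Eps8l1 at -5.56 and Slc35d3 at -5.41. Smaller ones belonged to Prom1 at -5.13, Shcbp1l at -4.98, Pdk1 at -4.95, Ltk at -4.93, Oasl2 at -4.93, Cdkn1c at -4.74, Slc16a3 at -4.52, Ifitm3 at -4.14 and Id1 at -4.06. A further group held Gsta4 at -4.04, Heph at -3.92, Gja1 at -3.82, Gfap at -3.74, Slc2a3 at -3.69, Dusp5 at -3.68, Hk2 at -3.47, Hes5 at -3.38 and Tap1 at -3.19. Behind them stood Pfkl at -3.08, Egr1 at -3.05, Hopx at -3.02, Serpinh1 at -2.69, Nrarp at -2.64, Fzd7 at -2.64, Ero1a at -2.56, Btg2 at -2.56 and Irf9 at -2.52. After these came Ifih1 at -2.49, Gjc1 at -2.28, Mia at -2.26, Hoxc10 at -2.21, Sox9 at -2.20, Rb1 at -2.12, Fgfr3 at -2.05, Egln1 at -1.97 and Rbfox3 at -1.82. The least negative were Bst2 at -1.77, Mcm3 at -1.72, Aurkb at -1.71, Ezh2 at -1.63, Hoxb2 at -1.56, Bub1 at -1.55 and Zic1 at -1.43.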

How the results depend on the processing

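Without the 2-fold threshold the counts of called genes rose to 9479 between the modified groups, 5830 between the control groups and 7083 for the difference of the age differences. Under every other setting that was run (offset, scaling, dim filter, probe set averaging, groups fitted, trend, block and arrays left out) each of these counts stayed within 1.5 times its value. Leaving out 1 array at a time gave 4539 to 4691 genes between the modified groups, 1603 to 2110 between the control groups and 3407 to 3551 for the difference. With the replicate number as a replicate block they were 4648, 1918 and 3457; same-numbered arrays did not deviate together, so they share only a number. Without postnatal control arrays 4 and 5 the control groups gave 1367 genes and the difference 3683. Of 2320 alternative values of the 116 named genes 2295 kept their direction and their side of the threshold, 23 lost a call, 2 gained one (Olig2 and Sox2, without the 2-fold threshold) and 0 reversed. Of 94 list counts 19 moved by over 1.5 times under at least 1 alternative that kept the 2-fold threshold; each of these had a reported count of 0 to 2 and moved by 1. They were the higher counts of the Hox, forebrain, midbrain and hindbrain, stem cell, microglia, endothelial, ependymal, Wnt, immediate early, hypoxia, interferon, ribosome and Myc lists and the lower counts of the myelin, neuron, microglia, ependymal, MHC class II and glutamate receptor lists. Signals near background limit the dim side of the widest differences, which are therefore given as bounds or as mean signals.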
